A study of Homo sapiens with 2 samples.

Results

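The miR-23/27/24 clusters are a pair of duplicated microRNA (miRNA) loci, and the members described here are the main arms that they produce, hsa-miR-23a-3p, hsa-miR-27a-3p, hsa-miR-23b-3p, hsa-miR-27b-3p and hsa-miR-24-3p. These 5 probes were taken by name from the 1273 human miRNA probes of a locked nucleic acid array, on which each of them occurred once. Total RNA of H460 cells, a human non-small cell lung cancer line, was labelled with the Hy3 dye after a treatment of 48 hours, either with vehicle or with sulforaphane. Sulforaphane is a plant isothiocyanate known to activate NRF2, the regulator of antioxidant genes. Both groups were cultured alike and differed in the added agent alone as far as the labels say. The labels used here do not give the dose. Each group held 1 array, so no test, standard error or p-value could be given, and the number of arrays limits the precision of every value. In a culture, fewer cells and less RNA per cell could not be told apart.

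Each cluster is transcribed as one precursor from which a miR-23, a miR-27 and a miR-24 hairpin are cut, and the mature strands repress messenger RNAs that pair with their seed. MiR-23a and miR-23b repress glutaminase and are lowered by MYC. MiR-27a and miR-27b repress the fat cell regulator PPARG and forkhead factors, and binding of miR-27a to NRF2 messenger RNA has been described. MiR-24 represses the histone variant H2AX and several cell cycle genes.

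In RefSeq (GRCh38.p14) the hairpins of cluster a lie within 373 bases on the minus strand at chr19:13836287-13836659, inside the long non-coding RNA gene MIR23AHG. Those of cluster b lie within 881 bases on the plus strand at chr9:95085208-95086088, inside the span of AOPEP, an aminopeptidase gene. The mature sequences are printed because the members fall into 3 seed groups and each paralogous pair differs by a single base. Capitals mark the seed, bases 2 to 8 from the 5′ end.
miR-23a-3p (chr19:13836595-13836615, minus strand): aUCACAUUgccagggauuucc
miR-23b-3p (chr9:95085265-95085287, plus strand): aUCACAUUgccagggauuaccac
miR-27a-3p (chr19:13836447-13836467, minus strand): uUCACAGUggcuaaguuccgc
miR-27b-3p (chr9:95085505-95085525, plus strand): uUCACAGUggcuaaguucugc
miR-24-3p (chr9:95086064-95086085, plus strand, and chr19:13836289-13836310, minus strand): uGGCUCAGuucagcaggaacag

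Counted from the 5′ end, miR-23a-3p and miR-23b-3p differed by U19A over the 21 bases they share, and miR-23b-3p is 23 bases long. MiR-27a-3p and miR-27b-3p differed by C19U. The seeds of miR-23 and miR-27 had 6 of 7 bases in common and differed by U7G, whereas that of miR-24 is unrelated. MiR-24-3p is identical from both loci, so its probe reads the sum of both clusters and it belongs to neither in the comparison of a with b. The other miRNA of the same name family, miR-23c, shares the miR-23 seed. A further RefSeq miRNA with the miR-27 seed, miR-9985, was not among the probe names.

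All 5 members read higher on the sulforaphane array on the authors' deposited scale, by 1.43- to 1.58-fold. Their values were close to one another, and none was 2-fold apart between the arrays. The direction was shared by most miRNAs, so each value is given below beside the rest of the profile. The members had a median log2 ratio, sulforaphane over vehicle, of 0.59. The 168 human miRNAs above the detection floor on both arrays had a median of 0.38, with quartiles of 0.12 and 0.54. A probe was called detected where its normalized intensity exceeded that of 95% of the probes for viral miRNAs, a floor of 6.44 with vehicle and 5.52 with sulforaphane.

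The members of cluster a were above this floor on both arrays. The probe of hsa-miR-23a-3p had a normalized intensity of 77.7 with vehicle and 123 with sulforaphane, a 1.58-fold difference (log2 ratio 0.66). That of hsa-miR-27a-3p read 22.6 with vehicle and 34.3 with sulforaphane, a 1.52-fold difference (log2 ratio 0.60). These were the 18th and 25th highest log2 ratios of the 168 detected miRNAs.

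The members of cluster b were detected on both arrays as well. The probe of hsa-miR-23b-3p read 172 with vehicle and 246 with sulforaphane, a 1.43-fold difference (log2 ratio 0.52), which was the 48th highest. That of hsa-miR-27b-3p, the dimmest member, read 11.4 with vehicle and 17.2 with sulforaphane (log2 ratio 0.59), which was the 26th highest. Its vehicle value was 1.78 times the floor, whereas the vehicle values of the other members were 3.51 to 26.7 times the floor.

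The probe of hsa-miR-24-3p, the product of both clusters, read 67.3 with vehicle and 97.6 with sulforaphane, a 1.45-fold difference (log2 ratio 0.54) and the 41st highest. In background-subtracted units the members spanned 1274.5 to 19160.5 on the vehicle array and 2133 to 30473 on the sulforaphane array, and none was at the scanner limit. Their local background was 39.5 to 44 units with vehicle and 59.5 to 66.5 units with sulforaphane. Background was thus a small part of each signal. Probes bind with different affinity, so the intensities of different probes do not order the miRNAs by abundance.

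**Figure D1:**
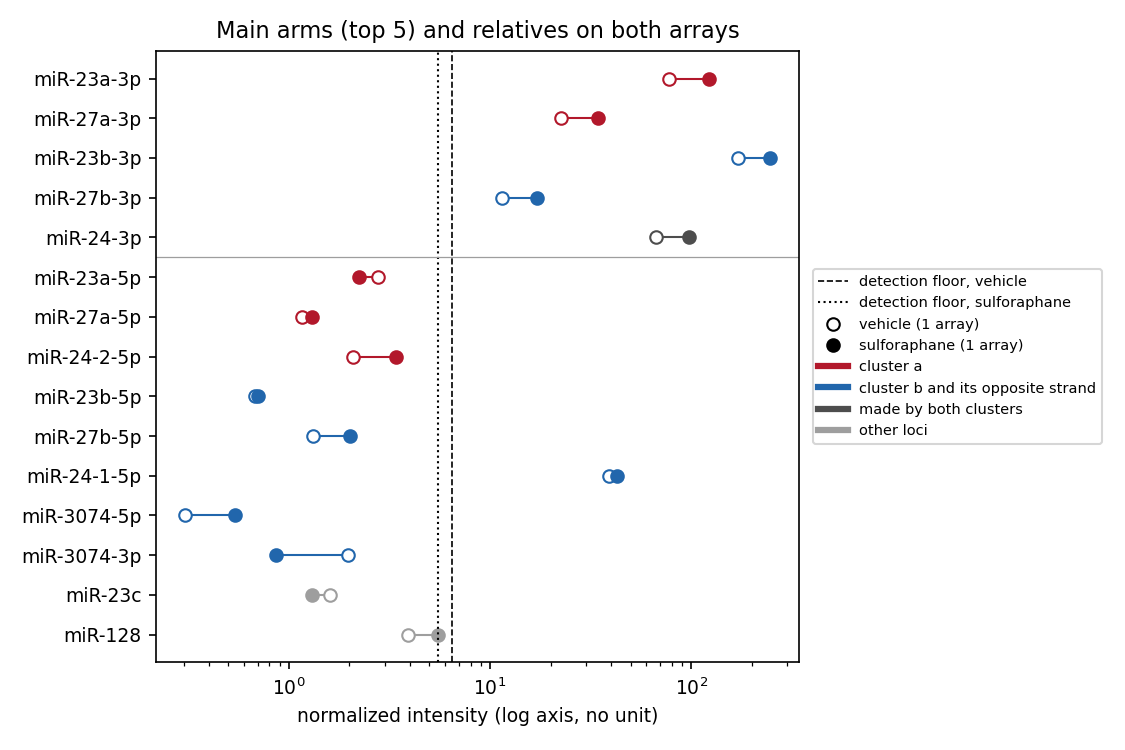
Normalized intensity (log axis, no unit) of the 5 main arms and of 10 relatives, with an open point for the vehicle array and a filled point for the sulforaphane array, 1 array each. Vertical lines mark the detection floors of 6.44 (vehicle) and 5.52 (sulforaphane). The main arms and miR-24-1-5p lie to the right of both floors.

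Of the 5 members, 0 differed by 2-fold or more in either direction. Among all detected miRNAs, 3.57% read higher by this size and 1.19% lower. At a size of 1.5-fold on the authors' scale, 3 of the 5 members counted as higher, against 16.1% of all detected miRNAs. They were miR-23a-3p, miR-27a-3p and, only just at 1.505-fold, miR-27b-3p. All 5 members had a log2 ratio above 0, as did 82.7% of the detected miRNAs. Each of the 5 exceeded the median ratio of detected miRNAs, as 50% do by construction, and 4 exceeded the upper quartile, miR-24-3p only just. The exception, miR-23b-3p, was 0.13 above the median.

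These positions were shared by many miRNAs outside the clusters. The interval from the lowest to the highest member, 0.52 to 0.66, held 31 of the 168 detected miRNAs (18.5%), the members included. The members stayed under the median of the spike-in probes. The 41 detected spike-in probes, for RNAs added to the samples, centred on a log2 ratio of 0.68 ± 0.20 (median, SD between probes). The 21 detected probes for small nucleolar, small nuclear and ribosomal RNAs centred on 0.25 ± 0.25. The part of the amount of RNA on each array in the members' values was not tested.

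**Figure D2:**
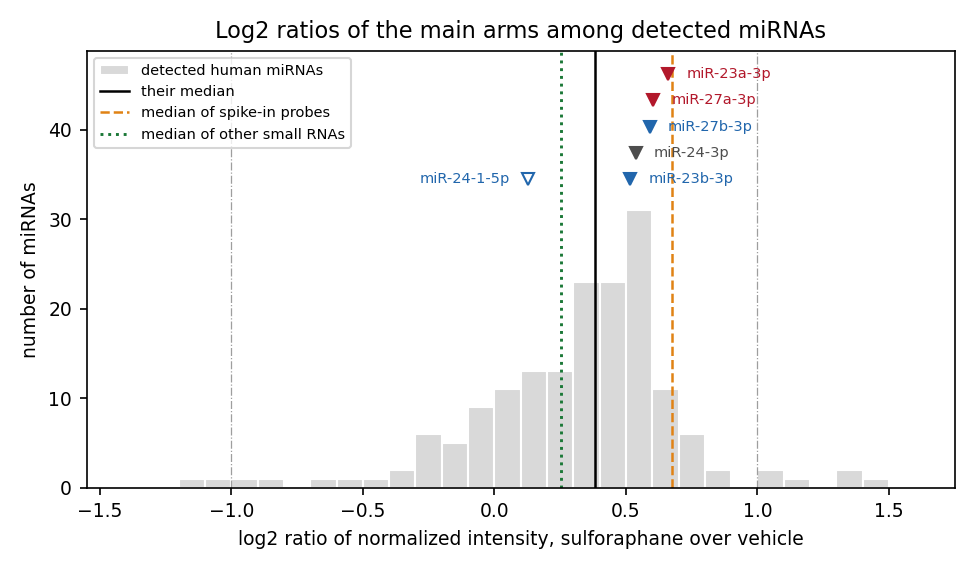
Histogram of log2 ratios (sulforaphane over vehicle, normalized intensities) of the 168 detected human miRNAs (y axis, number of miRNAs), with triangles for the 5 main arms and, open, miR-24-1-5p. Lines mark the medians of detected miRNAs (0.38), spike-in probes (0.68) and other small RNAs (0.25), and thin lines mark 2-fold. The main arms lie between the first and the second of these medians.

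The sign of the members' ratios depended on how the arrays were scaled. Their place above the median of detected miRNAs was kept, but a single factor per array cannot change that place. Only quantile normalization and cyclic loess could have moved it. Over the 7 other scalings tried, the median of detected miRNAs moved between 0.54 without normalization and -0.32 with the spike-in probes as the reference. The members' median moved with it, from 0.74 to -0.11. With the arrays scaled to the spike-in probes, all 5 members had a log2 ratio below 0, and under the other 6 scalings all 5 were above 0. Under each of the 7, all 5 members lay above the median of detected miRNAs. After quantile normalization, however, miR-24-3p read 0.03 and miR-23b-3p 0.04 against a median of 0.02. After cyclic loess the lowest member, miR-23b-3p, read 0.04 against a median of -0.002. The distance of the members' median from that of detected miRNAs was 0.21 on the authors' scale and 0.13 to 0.21 over these scalings.

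**Figure D3:**
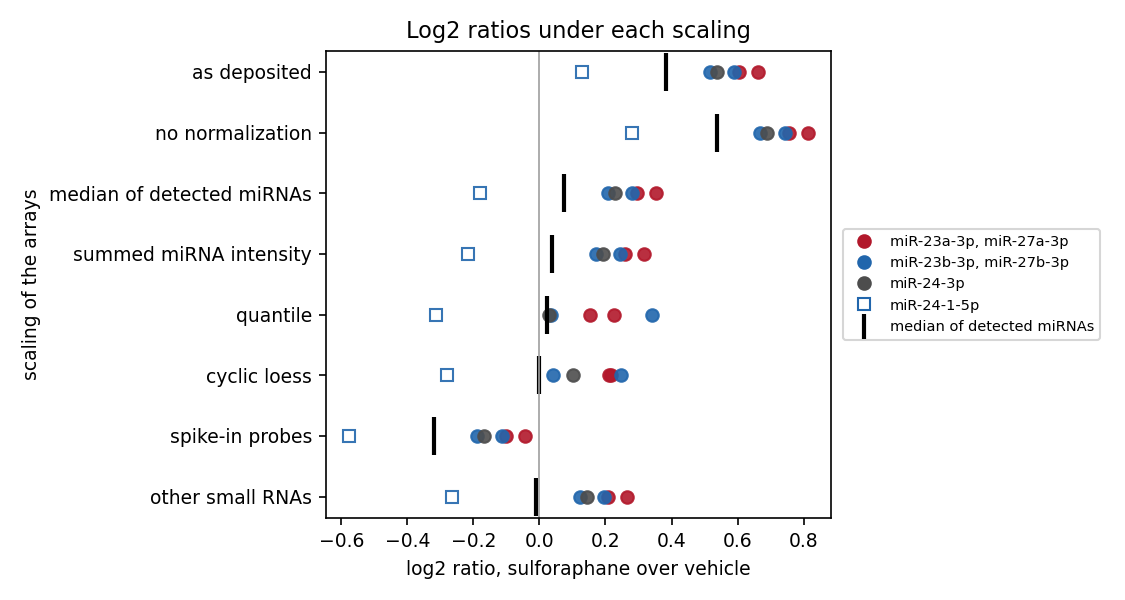
Log2 ratio, sulforaphane over vehicle (x axis), of the main arms (filled points) and miR-24-1-5p (open squares) under the authors' scale and 7 other scalings of the arrays (y axis). Black bars mark the median of detected miRNAs, from 0.54 without normalization to -0.32 with the spike-in probes. The main arms lie to the right of the bar, miR-24-3p and miR-23b-3p nearly on it after quantile normalization. MiR-24-1-5p lies to the left of the bar under each scaling.

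The paralogous clusters were compared within seed pairs, since a difference of log2 ratios is unaffected by a single scaling factor per array. The miR-27 pair read alike: the log2 ratio of miR-27b-3p minus that of miR-27a-3p was -0.01. For the miR-23 pair, miR-23b-3p minus miR-23a-3p was -0.14. Both differences were smaller than the SD of the spike-in probes' log2 ratios (0.20). That SD is of single ratios, and a difference between independent ratios spreads wider. It is thus a narrow scale for the differences here and below. The mean log2 ratio was 0.63 for the pair of cluster a and 0.55 for the pair of cluster b, a difference of -0.08 for b minus a.

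Other paralogs gave a scale for these differences. Among the detected miRNAs of other families whose names were matched in the RefSeq table, 30 pairs had the same number and arm, different letters and an equal seed. Pairs of one family share members and are not independent. Their absolute difference of log2 ratios had a median of 0.17 and a range of 0.04 to 0.45, and 11 exceeded the spike-in SD. The smallest of the 30 belonged to miR-29a-3p and miR-29c-3p (log2 ratios 0.42 and 0.46). The largest of them belonged to let-7a-5p (0.09) and let-7i-5p (0.54). A further 10 pairs by name, with miR-30b-5p, miR-320a, miR-130a-3p or miR-374a-5p, were not compared by sequence. They differed by 0.08 to 0.71, and 9 of them by more than the miR-23 pair. On the authors' scale the miR-27 pair differed by less than each of the 30, and 18 of the 30 differed by more than the miR-23 pair. The miR-27 difference was 0.11 after quantile normalization, and the other pairs were not compared on that scale. Of the 8 among the 30 that, like the miR-23 and miR-27 pairs, differ by 1 base over their shared length, 6 had a larger difference than the miR-23 pair. Probes whose targets differ by 1 base can capture each other's target, and how far the probes of the a and b paralogs did so was not tested.

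On the authors' scale the seed groups also read alike. The mean log2 ratio was 0.59 for the miR-23 pair and 0.60 for the miR-27 pair, and that of miR-24-3p was 0.54. MiR-27 minus miR-23 was 0.01, miR-24 minus miR-23 was -0.05, and miR-24 minus miR-27 was -0.06. The SD between the 5 members was 0.06, against 0.20 between spike-in probes. This closeness depended on the processing. After quantile normalization miR-27 minus miR-23 was 0.19 and miR-24 minus miR-27 was -0.25, the latter larger in size than the spike-in SD. With the floor added before the logarithm these differences were -0.15 and 0.08.

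The opposite arms of the same hairpins, which are usually discarded when the mature strand is loaded, were mostly too dim to compare. Of the 6 such probes, 5 were below the floor on both arrays. For cluster a, miR-23a-5p read 2.78 and 2.24, miR-27a-5p 1.16 and 1.30 and miR-24-2-5p 2.09 and 3.39 with vehicle and sulforaphane. For cluster b, miR-23b-5p read 0.677 and 0.706 and miR-27b-5p 1.32 and 2.02. A difference in these arms was not detectable at such signals.

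The exception was miR-24-1-5p, the opposite arm of the miR-24 hairpin of cluster b. It read 39.1 with vehicle and 42.7 with sulforaphane, a 1.09-fold difference (log2 ratio 0.13), the 125th highest of 168. It thus lay below the median of detected miRNAs, on the other side from all 5 main arms. Its log2 ratio was 0.41 below that of miR-24-3p (difference -0.41), more than the spike-in SD. The hairpins are shown because both carry the same miR-24-3p and the arm that was detected comes from one of them, with the arms in capitals and the 5p arm first.
MIR24-1 (cluster b, chr9:95086021-95086088, plus strand): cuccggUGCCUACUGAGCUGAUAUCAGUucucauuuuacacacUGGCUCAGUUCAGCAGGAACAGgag
MIR24-2 (cluster a, chr19:13836287-13836359, minus strand): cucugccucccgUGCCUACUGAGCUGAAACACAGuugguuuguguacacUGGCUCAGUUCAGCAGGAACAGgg

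The 5p arms of these hairpins differed at 6 of 22 bases, the first of them A16U from miR-24-2-5p to miR-24-1-5p, and had the same seed, GCCUACU. MiR-24-3p sums both hairpins and miR-24-1-5p reads one, so their ratios need not be equal. The arms were set against other hairpins after their values had been seen. In 11 other hairpins with both arms detected, the absolute difference between the arms had a median of 0.39 and a range of 0.10 (miR-3607) to 1.17 (MIR183). It was larger than for MIR24-1 in 5 of these 11, and it exceeded the spike-in SD in 9.

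**Figure D4:**
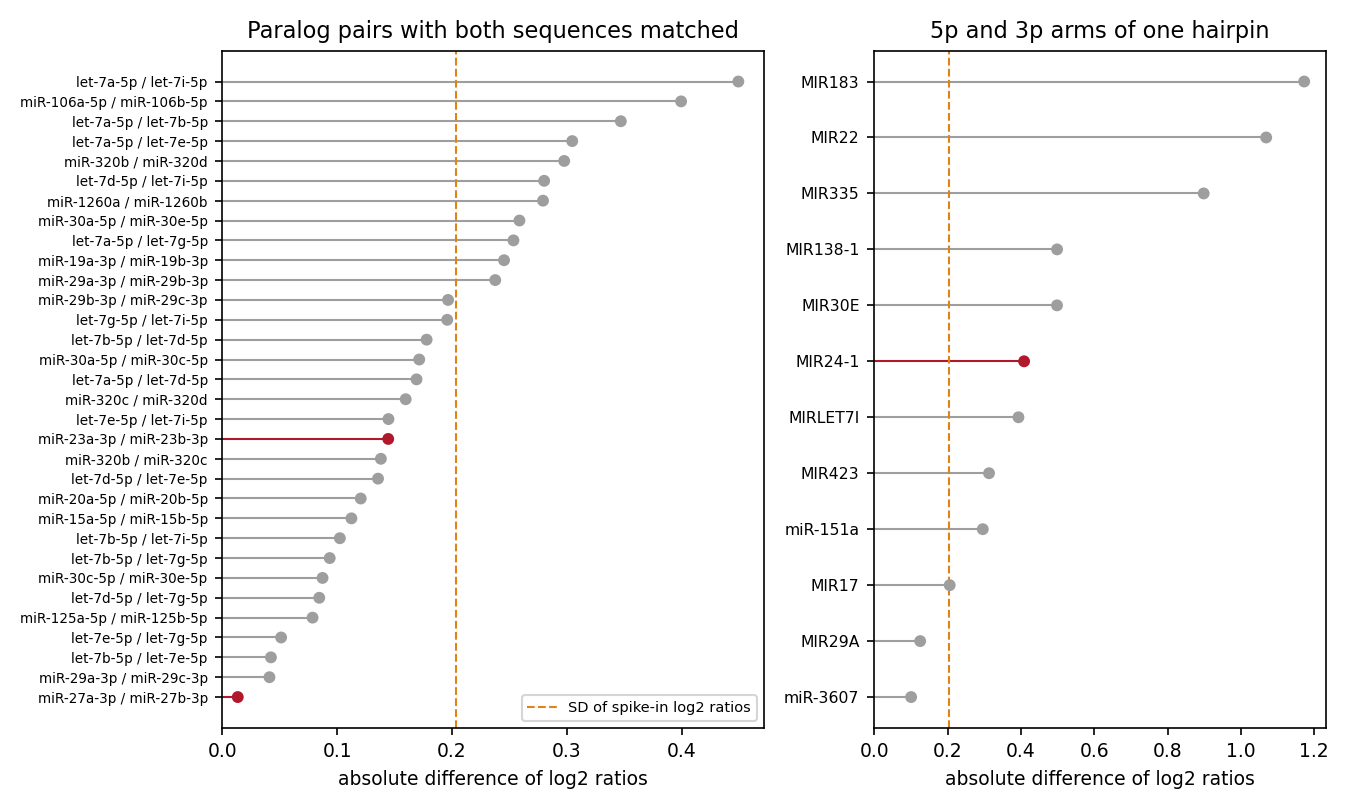
Absolute difference of log2 ratios on the authors' scale (x axes) between paralogs with one seed and matched sequences (left, y axis, the pair) and between the arms of one hairpin (right, y axis, the gene or miRNA). The miR-27 pair is the smallest on the left, the miR-23 pair (0.14) lies below the spike-in SD of 0.20 (dashed), and MIR24-1 (0.41) lies below 5 of the 11 other hairpins on the right.

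Relatives at other loci, or on the other strand, were below the floor, except miR-128 on the sulforaphane array. MiR-3074, cut from the strand opposite to MIR24-1, read 0.305 and 0.540 for its 5p arm and 1.97 and 0.863 for its 3p arm. MiR-23c read 1.61 with vehicle and 1.30 with sulforaphane. The probe for this other carrier of the miR-23 seed thus stayed under the floor on both arrays. MiR-128, listed without an arm, read 3.91 with vehicle, below the floor. With sulforaphane it read 5.52, only just above the floor (1.002 times) and equal to it after rounding. Its 3p arm has the core of the miR-27 seed shifted by a base.

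The detected miRNAs nearest to each member were taken by Euclidean distance over the log2 normalized intensities of the 2 arrays. For miR-23a-3p these were miR-106b-5p (distance 0.15) and miR-21-5p (0.27), and for miR-27a-3p miR-335-3p (0.11) and miR-340-5p (0.12). For miR-23b-3p they were miR-4284 (0.17) and miR-29a-3p (0.23), and for miR-27b-3p miR-30b-5p (0.14) and miR-17-3p (0.16). For miR-24-3p they were miR-16-5p (0.13) and miR-20a-5p (0.13). No member was among the nearest of another. This distance takes in probe brightness, in which the members lay far apart (11.4 to 172 with vehicle), whereas their log2 ratios lay between 0.52 and 0.66.

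Other groups of duplicated clusters were set beside the members, without a test. In the clusters of miR-17 and its neighbours, which are activated by MYC, 11 of 13 probes were detected with a median log2 ratio of 0.55, from 0.11 (miR-92a-3p) to 0.79 (miR-19a-3p), and 9 of these exceeded the detected median. In the miR-29 family, which represses collagens and DNA methyltransferases, all 3 were detected with a median of 0.46, from 0.42 (miR-29a-3p) to 0.66 (miR-29b-3p). The miR-15/16 family, which represses BCL2, had 3 detected with a median of 0.38, from 0.37 (miR-16-5p) to 0.49 (miR-15b-5p). The miR-181 family had 2 of 4 detected, miR-181a-5p (0.10) and miR-181d (0.55). The detected median was exceeded by 3 of 3 in the miR-29 family, 1 of 3 in miR-15/16 and 1 of 2 in miR-181. The members' own median was 0.59 with a spread of 0.14 from lowest to highest.

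MiR-27a-3p was also on a list of 10 miRNAs known to act on NRF2 or its inhibitor KEAP1, of which 4 were detected. MiR-7-5p, which represses KEAP1, had a log2 ratio of 0.88 and read 49.7 with sulforaphane. MiR-93-5p read 43.6 and 72.6 (0.74), and miR-34a-5p, which is induced by p53, read 23.2 and 28.9 (0.32). MiR-27a-3p thus lay between these, and 0 of the 4 reached 2-fold. The identity of the cells was checked on marker lists. MiR-21-5p and miR-31-5p, both frequent in carcinomas, were detected on both arrays. Of 6 epithelial markers (the miR-200 family and miR-205-5p), 0 were above the floor on either, the brightest at 3.97 with vehicle and 3.96 with sulforaphane. The opposite arm, miR-205-3p, was not on the list and was detected on both arrays (log2 ratio 0.49). Of 5 blood and immune markers, 0 were above the floor on either array, and their summed normalized intensity was 4.19 with vehicle and 4.94 with sulforaphane. Of the endothelial and muscle markers, miR-126-3p was above the floor with sulforaphane (6.24 and 8.69) and miR-206 with vehicle (6.61 and 1.80). MiR-126 and miR-206 come from other loci than the members. The RNA was that of a cultured cell line, so these readings were not taken as a share of other cell types. What raised miR-126-3p and miR-206 over the floor on one array each was not tested.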

How the data were processed

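RNA of 1 vehicle and 1 sulforaphane sample was hybridised to 1 one-colour array each. The deposited workbook held, per the file headers, a foreground intensity, a background-subtracted intensity and a normalized value per probe. The deposited normalized value is a ratio, the background-subtracted intensity over a single factor per array (111.5 for vehicle, 124 for sulforaphane). The labels and headers used here do not say how the factors were chosen, nor the scanner or software. The deposited fold equalled the ratio of normalized values. The series value table held the same values.

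Log2 ratios of normalized values were computed without a pseudocount over 2661 probes. No test was possible. The yardstick was the SD of the log2 ratios of detected spike-in probes, which holds no variation between cultures. It is an SD of single ratios and not of differences between ratios. Named miRNAs were the members, the other arms and seed relatives of their loci, the 2 nearest detected miRNAs of each member, the extremes of 4 lists of duplicated clusters and of the paralog pairs, detected miRNAs of an NRF2 and KEAP1 list, and cell markers. Members and lists were chosen with earlier results of these data known. Sequences are from RefSeq (GRCh38.p14), matched by exact name for the 5 members and 9 of the 10 relatives, and miR-128 was taken as its 3p arm. Arms of a hairpin were paired through this table or, where it lacks them, by name. No coordinates or build stand in the files. The arithmetic of the ratios was checked on simulated data without a floor and with little noise, which tests neither the floor nor the scaling. Alternatives were 7 scalings, other floors, no background subtraction, the floor added before the logarithm, saturated probes left out, another size and the mean. Calculations used Python 3.11.15, pandas 2.3.3, R 4.3.3 and limma 3.58.1.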

Additional observations from a re-analysis of the deposited data

How the results depend on the processing

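Leaving out an array was not possible with 1 per group. No paired analysis was possible because each group held 1 array. The members' median log2 ratio, 0.59 on the authors' scale, was 0.28 after scaling to the median of detected miRNAs, 0.24 after scaling to summed miRNA intensity, 0.15 after quantile normalization, 0.21 after cyclic loess and 0.20 after scaling to the other small RNAs. After scaling to the spike-in probes it was -0.11, with miR-23a-3p at -0.043, miR-27a-3p at -0.10, miR-23b-3p at -0.19, miR-27b-3p at -0.11 and miR-24-3p at -0.17. These scalings shift the whole profile, and the cause of the shift was not tested. On the authors' scale the 0 members past 2-fold became 3 at 1.5-fold. Without normalization the members' log2 ratios were 0.67 to 0.81, all past 1.5-fold. Under the remaining scalings the highest was 0.35, so no member reached 1.5-fold. All 5 members stayed above the median of detected miRNAs under all 12 other settings, by 0.13 to 0.32 for their median. Settings that apply a single factor per array could not have changed this. MiR-23b-3p minus miR-23a-3p ranged from -0.18 to -0.11 over these settings. MiR-27b-3p minus miR-27a-3p ranged from -0.11 to 0.11 and its sign was not settled. Its higher value came from quantile normalization and its lower one from adding the floor. With the floor at the 99th percentile of the viral probes (20.6 and 23.2), miR-27b-3p was no longer detected. The lowest signals, those of the opposite arms, allow no comparison.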
